A study of Narcissus tazetta subsp. chinensis with 8 samples.

Results

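Corolla and petal were compared on day 1, at early flowering, in the Chinese narcissus Narcissus tazetta var. chinensis cv Jinzhanyintai. Of 50576 assembled genes listed for both tissues, 22489 reached 1 FPKM in 2 or more of the 4 day 1 libraries and form the comparison. Each tissue had 2 biological repeats, giving 2 corolla and 2 petal libraries, all from plants grown outdoors in one plantation in Fujian. The same tissues were also sampled on day 7, at full bloom, for a study of floral scent, and those 4 libraries are used here only where named. The labels do not say how the corolla was separated from the petal or whether corolla means the cup (corona) of the flower, and give no number of plants per repeat. Libraries were made from total RNA and the reads were assembled de novo, so genes carry assembly identifiers and have no coordinates.

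Jinzhanyintai has white tepals around a yellow cup. Yellow in such flowers comes from carotenoids, which plastids build from phytoene and which carotenoid cleavage dioxygenase 4 (CCD4) breaks down. In other species, such as chrysanthemum, CCD4 activity keeps petals white. The scent of Narcissus tazetta is rich in benzenoid esters and monoterpenes, whose precursors come from the shikimate pathway in plastids and from the plastid methylerythritol phosphate pathway.

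Levels are FPKM, fragment counts corrected for transcript length and library size, as the authors deposited them in a table for each tissue. Differences are corolla minus petal in mean log2(FPKM + 1), a scale that understates changes of genes with low FPKM, and were tested with limma across all 22489 genes with Benjamini-Hochberg adjustment at 0.05. The p-values measure the spread between these repeats, and 2 libraries against 2 leave single genes imprecise. In bulk tissue, fewer cells of a type and less RNA per cell cannot be told apart. Relative depth ran from 0.830 to 1.04 of corolla repeat 1, and 23336 to 24964 genes reached 1 FPKM in a day 1 library. Correlation of log2 values across genes was 0.976 between the corolla repeats, 0.977 between the petal repeats and 0.908 to 0.914 between tissues. The undescribed c73852.graph_c0 took up 4.61% to 8.04% of the summed FPKM of a day 1 library and did not pass (adjusted p = 0.29 by limma).

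The tissues differed widely before full bloom. In all, 5556 genes (24.7%) passed, 2400 (10.7%) higher in corolla and 3156 (14.0%) lower. The balance between the directions rests on the scaling: TMM scaling gave 2878 higher and 2587 lower, and median-of-ratios scaling 2862 and 2605, as the median difference of all genes moved from -0.08 to -0.01. Leaving out 1 library cut the count to between 2860 (without petal repeat 1) and 2906 (without corolla repeat 2), with 2865 without corolla repeat 1 and 2890 without petal repeat 2. With no filter on low FPKM, 1460 of 50576 genes passed, 722 higher and 738 lower, and 35 of the 110 called genes named in the text lost their call. Libraries of the 2 tissues did not overlap for 5860 genes (26.1%) higher in corolla and 8518 (37.9%) lower, so a lack of overlap is given below as a description only. Names exist only for the 1917 genes that the authors called between days in a tissue, of which 1756 were tested and 1117 (63.6%) passed. Of these 1756 genes, 610 (34.7%) were higher in corolla and 507 (28.9%) lower, with a median difference of 0.05.

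That naming uses the same day 1 libraries, so no count of named genes below is independent evidence of direction. Among 675 genes that the authors called lower on day 7 in corolla alone, 434 were higher and 41 lower in corolla on day 1. Among 214 called lower on day 7 in petal alone, 17 were higher and 110 lower. The lists below gather named genes by words in their descriptions. Each list count is to be read beside the shares of all 1756 named genes tested, 34.7% higher and 28.9% lower in corolla. Genes with the same identifier stem may be near copies, with reads split between them, though some carry unrelated names. The labels name no strand-marking kit, so overlapping genes on opposite strands were not told apart.

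**Figure D1:**
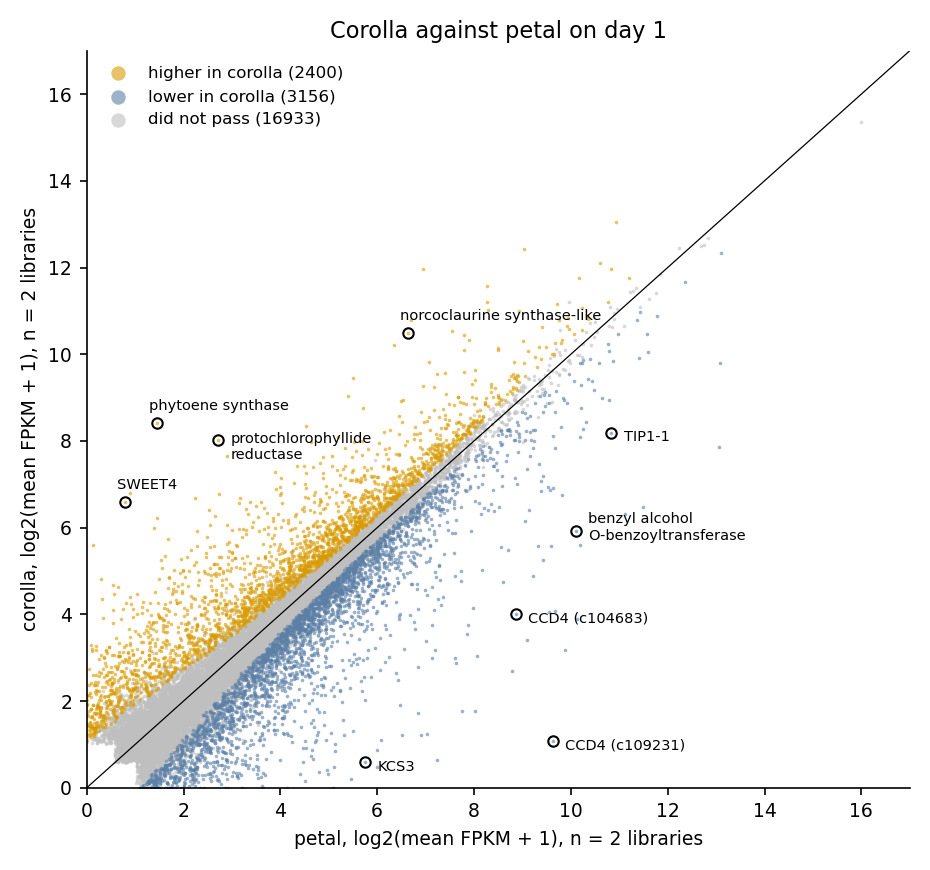
Mean level of 22489 genes on day 1 in petal (horizontal axis) and corolla (vertical axis), both as log2(FPKM + 1) over 2 libraries, with genes that passed limma at an adjusted p below 0.05 in colour and the diagonal marking equal levels. Phytoene synthase and SWEET4 lie far above the diagonal, and the 2 CCD4 genes and the elongase gene KCS3 far below it.

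Carotenoid genes gave the widest contrast among named genes. Of 12 tested genes of carotenoid synthesis, 10 were higher and 2 lower in corolla, with a median difference of 1.23. For all named genes tested the shares were 34.7% higher and 28.9% lower. By the authors' call behind the name, all 7 called in corolla alone were higher. Of 4 called in both tissues 3 were higher and 1 lower, and the 1 called in petal alone was lower. Phytoene synthase (c101402.graph_c0), the entry enzyme of the pathway, had 354 and 330.1 FPKM in corolla, against 1.32 and 2.17 FPKM in petal (log2 difference 6.98 ± 0.16 SE, limma adjusted p = 4.02e-05). Both corolla libraries lay far above both petal libraries, the largest positive difference of any named gene. A further phytoene synthase gene (c96068.graph_c0) was weaker, with 7.61 and 8.06 FPKM in corolla, against 0.51 and 0.85 FPKM in petal (log2 difference 2.40 ± 0.23 SE, limma adjusted p = 0.00152). Both synthase genes thus stood higher in corolla in all 4 pairings of libraries.

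Further along the pathway, lycopene is turned into carotenes with one or another kind of ring. Lycopene epsilon cyclase (c109754.graph_c4), which starts the lutein branch, had 122 and 113 FPKM in corolla, against 14.1 and 14.0 FPKM in petal (log2 difference 2.98 ± 0.08 SE, limma adjusted p = 5.34e-05). Capsanthin/capsorubin synthase (c102481.graph_c0), a member of the lycopene cyclase family named after its pepper relative, had 157 and 152 FPKM in corolla, against 14.4 and 13.1 FPKM in petal (log2 difference 3.40 ± 0.08 SE, limma adjusted p = 5.17e-05). Corolla and petal libraries did not overlap for either gene. Lycopene beta cyclase (c89421.graph_c1), which makes beta-carotene, had 42.4 and 38.4 FPKM in corolla, against 24.5 and 20.9 FPKM in petal (log2 difference 0.81 ± 0.11 SE, limma adjusted p = 0.00577).

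A pair of genes described as D27, an isomerase that feeds beta-carotene towards strigolactones, went in opposite directions. One (c103044.graph_c0) had 104 and 100.4 FPKM in corolla, against 4.04 and 3.33 FPKM in petal (log2 difference 4.47 ± 0.11 SE, limma adjusted p = 5.17e-05). The other (c108685.graph_c0) had 1.66 and 1.09 FPKM in corolla, against 17.9 and 13.6 FPKM in petal (log2 difference -2.82 ± 0.22 SE, limma adjusted p = 0.000851). Each kept both libraries of one tissue apart from both of the other. Zeaxanthin epoxidase (c104304.graph_c0), which turns zeaxanthin into violaxanthin, was the second gene lower in corolla, with 7.06 and 10.4 FPKM in corolla, against 25.0 and 32.0 FPKM in petal (log2 difference -1.61 ± 0.21 SE, limma adjusted p = 0.00458).

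The remaining genes of the list were higher in corolla by smaller amounts, and their calls were lost in some or all fits with 1 library less. Phytoene dehydrogenase (c98621.graph_c0), which desaturates phytoene, had 2.48 and 3.66 FPKM in corolla, against 0.61 and 0.54 FPKM in petal (adjusted p = 0.0196 by limma). Beta-carotene 3-hydroxylase (c96841.graph_c1), which makes zeaxanthin, had 3.57 and 4.40 FPKM in corolla, against 1.65 and 1.00 FPKM in petal (adjusted p = 0.0306 by limma). Neither passed once any 1 of the 4 libraries was left out. The zeta-carotene isomerase gene (c91437.graph_c0) had 209 and 181 FPKM in corolla, against 144 and 131 FPKM in petal (adjusted p = 0.0188 by limma) and was not called without corolla repeat 1 or without petal repeat 2. Violaxanthin de-epoxidase (c99166.graph_c0), which reverses the epoxidase step, had 29.0 and 25.2 FPKM in corolla, against 11.8 and 16.1 FPKM in petal (adjusted p = 0.0139 by limma) and was not called without either corolla library. Counts of carotenoid synthesis genes higher in corolla ran from 6 without corolla repeat 1 to 8 without petal repeat 1, with 7 without either of the others. The 2 lower calls held each time.

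Both named CCD4 genes ran the other way. One (c109231.graph_c0) had 0.97 and 1.25 FPKM in corolla, against 788 and 788 FPKM in petal (log2 difference -8.55 ± 0.10 SE, limma adjusted p = 7.94e-06), the largest negative difference of any named gene. The petal libraries were almost equal and lay far above both corolla libraries. The other (c104683.graph_c0) had 10.8 and 19.4 FPKM in corolla, against 499 and 429.6 FPKM in petal (log2 difference -4.90 ± 0.25 SE, limma adjusted p = 0.000232), again with no overlap. The best match of both in Nr, the protein database of NCBI, is a dioxygenase that cleaves zeaxanthin. These calls held in every alternative run.

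**Figure D2:**
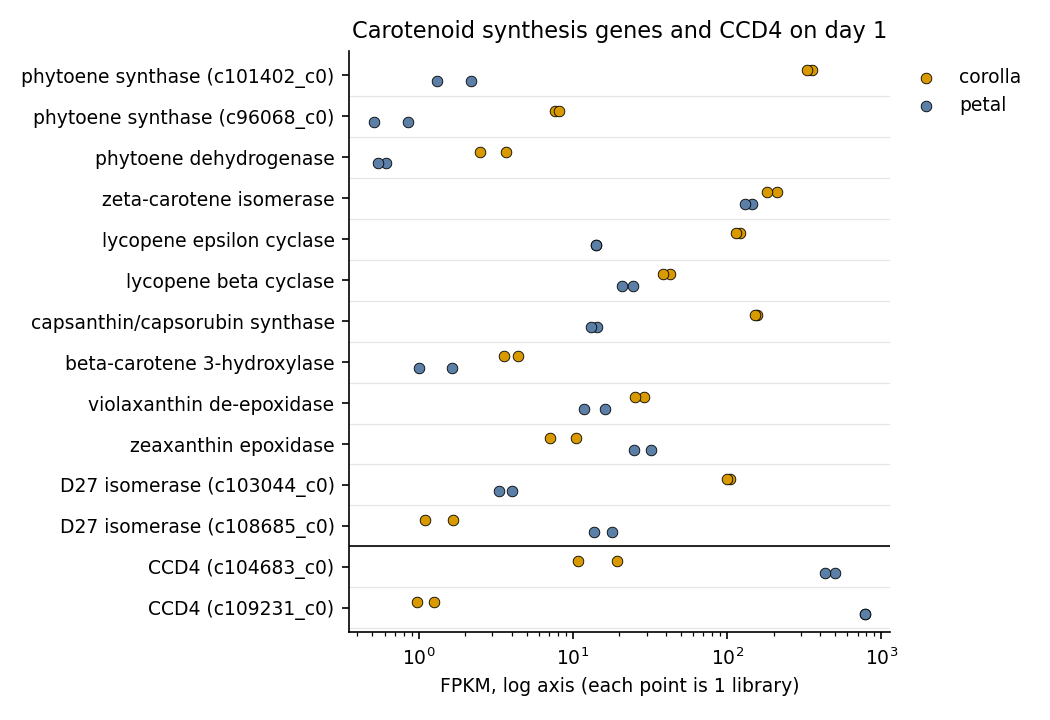
Day 1 level of the 12 carotenoid synthesis genes and, under the black line, the 2 CCD4 genes in FPKM on a log axis, with each point 1 library, corolla above petal for each gene. Corolla points lie to the right for 10 of the 12 synthesis genes and to the left for both CCD4 genes, at 0.97 to 19.4 FPKM against 430 to 788 FPKM in petal.

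Genes of chlorophyll synthesis and photosynthesis stood together on the corolla side, against 34.7% higher and 28.9% lower among all named genes tested. All 13 tested genes of chlorophyll metabolism were higher in corolla (median difference 2.44), as were 48 of 53 genes of the photosynthetic apparatus (2.31), with 1 lower. Of the photosynthesis genes, 38 were named through an authors' call in corolla alone and 15 through calls in both tissues, and all of those 15 were higher in corolla. Of the chlorophyll genes, 11 were named through a call in corolla alone and 2 through calls in both tissues. With 1 library left out, 44 to 48 photosynthesis and 11 to 13 chlorophyll genes were called higher. Summed over the list, photosynthesis genes came to 6828 and 6552 FPKM in the corolla libraries, against 1849 and 1829 FPKM in the petal libraries.

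Protochlorophyllide reductase (c91455.graph_c0), the light-driven step of chlorophyll synthesis, had 259 and 255 FPKM in corolla, against 5.35 and 5.77 FPKM in petal (log2 difference 5.30 ± 0.08 SE, limma adjusted p = 1.47e-05). A second reductase gene (c106566.graph_c0) had 98.4 and 106 FPKM in corolla, against 9.16 and 6.92 FPKM in petal (log2 difference 3.52 ± 0.14 SE, limma adjusted p = 0.000123). Neither gene's libraries overlapped between tissues. Magnesium chelatase commits the pathway to chlorophyll, and its subunit ChlI (c100099.graph_c0) had 202 and 198 FPKM in corolla, against 5.99 and 6.86 FPKM in petal (log2 difference 4.76 ± 0.09 SE, limma adjusted p = 2.27e-05). The other subunits, chosen for mention after their values were seen, moved the same way. ChlH (c109661.graph_c0) had 38.7 and 39.9 FPKM in corolla, against 5.38 and 7.75 FPKM in petal (2.43 on the log2 scale) and ChlD (c106218.graph_c0) had 30.6 and 28.7 FPKM in corolla, against 4.47 and 4.86 FPKM in petal (2.44). All 3 subunit genes passed, with ChlI far ahead of the others in size of difference. Also chosen after their values were seen, the magnesium-protoporphyrin monomethyl ester cyclase (c106346.graph_c1) differed by 2.48 ± 0.10 SE and geranylgeranyl diphosphate reductase (c103829.graph_c0), which makes the phytyl tail, by 2.95 ± 0.14 SE.

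The small subunit of ribulose bisphosphate carboxylase (c89121.graph_c0), part of the enzyme that fixes carbon dioxide, was among the most abundant photosynthesis genes, with 887 and 909 FPKM in corolla, against 138 and 130.1 FPKM in petal (log2 difference 2.74 ± 0.07 SE, limma adjusted p = 5.17e-05). Oxygen-evolving enhancer protein 2 (c84515.graph_c0), of photosystem II, had 730.1 and 678 FPKM in corolla, against 41.4 and 46.6 FPKM in petal (log2 difference 3.97 ± 0.09 SE, limma adjusted p = 3.52e-05). The photosystem II 10 kDa polypeptide (c107432.graph_c0) had 760.0 and 783 FPKM in corolla, against 235 and 207 FPKM in petal (log2 difference 1.80 ± 0.09 SE, limma adjusted p = 0.000213). In each case the lower corolla library exceeded the higher petal library. Chlorophyll a-b binding protein 1D (c86994.graph_c1), a light-harvesting protein, was at 24.7 and 24.5 FPKM in corolla, against 0.51 and 0.40 FPKM in petal (log2 difference 4.14 ± 0.17 SE, limma adjusted p = 0.000142), and other genes share its identifier stem.

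The exception among photosynthesis genes was chlorophyll a-b binding protein 8 (c96066.graph_c0), of photosystem I, with 149 and 142 FPKM in corolla, against 373 and 386 FPKM in petal (log2 difference -1.38 ± 0.07 SE, limma adjusted p = 0.000227). The early light-induced protein (c108016.graph_c0), a stress relative of the light-harvesting proteins and one of the 5 most abundant named genes in both tissues, had 3368 and 3131 FPKM in corolla, against 5902 and 4635 FPKM in petal (adjusted p = 0.034 by limma). Its libraries did not overlap, yet its call ended with TMM (0.0539) or median-of-ratios scaling (0.057) and without petal repeat 1 or either corolla library.

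Plastid ribosomal proteins followed the same direction and the tested cytosolic ones moved little. Of 29 described cytosolic ribosomal protein genes only 13 were tested, against all 34 plastid ones. Of 34 plastid ribosomal protein genes, 32 were higher in corolla and 1 lower (34.7% and 28.9% for all named genes tested). Their median difference was 1.82. The authors' call behind the name was in corolla alone for 28 of them, in both tissues for 6 and in petal alone for 0. The 50S protein L21 (c84891.graph_c0) had 271 and 273 FPKM in corolla, against 33.9 and 37.0 FPKM in petal (log2 difference 2.91 ± 0.08 SE, limma adjusted p = 5.17e-05), and the 50S protein L3-1 (c98893.graph_c0) had 237 and 254 FPKM in corolla, against 66.9 and 62.1 FPKM in petal (log2 difference 1.91 ± 0.08 SE, limma adjusted p = 0.000143). The 30S protein S1 (c103511.graph_c1) was the lone gene lower in corolla, with 1.30 and 2.08 FPKM in corolla, against 6.39 and 10.3 FPKM in petal (adjusted p = 0.00946 by limma), and was not called without corolla repeat 1 or without petal repeat 2. Of 13 cytosolic ribosomal protein genes 6 were higher and 0 lower, with a median difference of 0.39, and this count fell to 2 without corolla repeat 2 and was 8 without petal repeat 1. The 40S protein S27a-1 (c109410.graph_c0) had 413 and 411 FPKM in corolla, against 272 and 262 FPKM in petal (log2 difference 0.62 ± 0.07 SE, limma adjusted p = 0.00272).

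Fatty acids are also built in plastids, and 8 of 12 genes of that pathway were higher in corolla and 2 lower. Among all named genes tested the shares were 34.7% and 28.9%. The 2 lower calls ended with either other scaling and without any 1 library. Palmitoyl-acyl carrier protein thioesterase (c103026.graph_c0), which releases palmitate from the plastid, had 82.1 and 66.0 FPKM in corolla, against 1.75 and 1.69 FPKM in petal (log2 difference 4.78 ± 0.14 SE, limma adjusted p = 6.67e-05). A 3-oxoacyl-carrier protein reductase (c105804.graph_c7) had 55.6 and 67.6 FPKM in corolla, against 8.92 and 14.4 FPKM in petal (log2 difference 2.33 ± 0.22 SE, limma adjusted p = 0.00162), and a malonyl-CoA transacylase (c100007.graph_c0) 69.8 and 70.6 FPKM in corolla, against 28.2 and 28.9 FPKM in petal (log2 difference 1.27 ± 0.08 SE, limma adjusted p = 0.000353). Libraries did not overlap for these genes, as for the 26.1% of all genes tested that lay higher in corolla without overlap. Acyl carrier protein 1 (c90713.graph_c0), the carrier of the growing chain, differed less, with 233 and 218 FPKM in corolla, against 153 and 151 FPKM in petal (log2 difference 0.57 ± 0.07 SE, limma adjusted p = 0.00416). The 20 kDa chaperonin of the plastid (c91825.graph_c0) was also higher in corolla, at 286 and 303 FPKM in corolla, against 71.5 and 68.5 FPKM in petal (log2 difference 2.06 ± 0.07 SE, limma adjusted p = 9.88e-05).

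**Figure D3:**
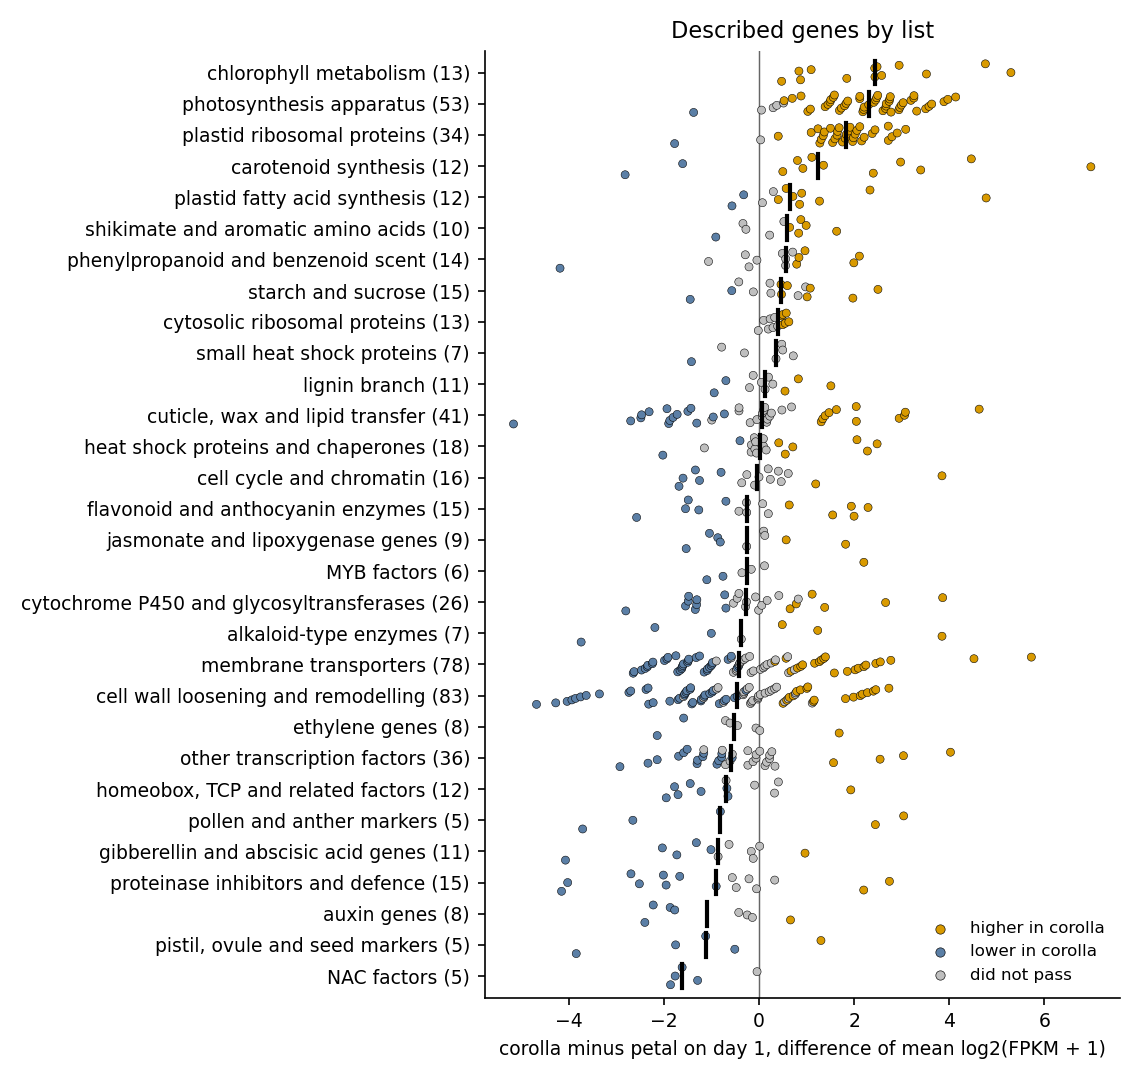
Difference between corolla and petal on day 1, as mean log2(FPKM + 1) in corolla minus petal, for the tested genes of each list. Lists of fewer than 5 genes and the methyltransferase list are left out. The number of genes is in brackets and the list median is a black bar. Chlorophyll, photosynthesis, plastid ribosomal and carotenoid synthesis genes have the highest medians (2.44, 2.31, 1.82 and 1.23), and NAC factors the lowest (-1.62).

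Scent-related genes ran in both directions. For phenylpropanoid entry and benzenoid scent, the share called higher was close to the 34.7% of all named genes tested. The share called lower, 1 of 14, was below the 28.9% of those genes. Among the enzymes of phenylpropanoid entry and benzenoid scent, 5 of 14 were higher in corolla and 1 lower (median difference 0.56), with 2 higher without corolla repeat 2 and 3 without corolla repeat 1. The lower one was benzyl alcohol O-benzoyltransferase (c95879.graph_c2), which makes the ester benzyl benzoate. It had 57.0 and 61.8 FPKM in corolla, against 1082 and 1121 FPKM in petal (log2 difference -4.19 ± 0.08 SE, limma adjusted p = 2.05e-05). Both petal libraries lay close together and far above both corolla libraries, and the call held in every alternative run. Terpene synthase 4 (c101367.graph_c0), whose best match in Nr is a linalool synthase, was also lower in corolla at a low level, with 1.12 and 1.64 FPKM in corolla, against 6.98 and 7.04 FPKM in petal (log2 difference -1.76 ± 0.22 SE, limma adjusted p = 0.00388), but was not called with no filter on low FPKM (adjusted p = 0.0514 by limma, over 50576 genes).

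Genes named trans-resveratrol di-O-methyltransferase after a grape enzyme belong to the O-methyltransferases that methylate small phenolics, and their substrate in narcissus is not given by the name. The most abundant (c103420.graph_c0), also the most abundant named gene of corolla, had 8703 and 8166 FPKM in corolla, against 2070.3 and 1842 FPKM in petal (log2 difference 2.11 ± 0.14 SE, limma adjusted p = 0.000487). A second (c98326.graph_c0) had 320.3 and 291 FPKM in corolla, against 75.0 and 76.8 FPKM in petal (log2 difference 1.99 ± 0.08 SE, limma adjusted p = 0.000123). Both were higher in corolla with no overlap, while another abundant copy did not pass. That one (c54333.graph_c0) had 1528 and 1662 FPKM in corolla, against 1748 and 1953 FPKM in petal (adjusted p = 0.228 by limma). Of the 2 weaker genes of this name, c112243.graph_c0 had 38.4 and 41.0 FPKM in corolla, against 24.6 and 15.9 FPKM in petal (adjusted p = 0.0206 by limma) and lost its call without either corolla library. The other, c48302.graph_c0, had 1.43 and 4.57 FPKM in corolla, against 4.33 and 10.1 FPKM in petal (adjusted p = 0.191 by limma). On the deposited counts of 504 genes, edgeR did call this last gene (adjusted p = 0.000203), and DESeq2 did too (0.0244).

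Phenylalanine ammonia-lyase opens the phenylpropanoid pathway, and none of its 3 genes passed. Phenylalanine ammonia-lyase 1 (c103612.graph_c0) had 162 and 145 FPKM in corolla, against 174 and 144 FPKM in petal (difference -0.05 ± 0.11 SE, adjusted p = 0.813 by limma). The others were c78531.graph_c0, at 37.4 and 42.9 FPKM in corolla, against 58.2 and 41.6 FPKM in petal (adjusted p = 0.274 by limma), and c93919.graph_c0, at 26.6 and 32.3 FPKM in corolla, against 24.0 and 16.0 FPKM in petal (adjusted p = 0.106 by limma). Tissue values overlapped for PAL1 and c78531.graph_c0. The call of c93919.graph_c0 as higher in corolla was made once petal repeat 1 was left out (adjusted p = 0.044 by limma).

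Among ligases that activate cinnamates, 2 of 5 were called, both higher in corolla. The 4-coumarate-CoA ligase-like 6 gene (c106335.graph_c1) had 40.8 and 50.8 FPKM in corolla, against 23.5 and 28.5 FPKM in petal (adjusted p = 0.0145 by limma) and was not called without corolla repeat 2 or petal repeat 1. The 4-coumarate-CoA ligase 1 gene (c100198.graph_c0) had 4.61 and 4.77 FPKM in corolla, against 2.39 and 1.99 FPKM in petal (adjusted p = 0.0352 by limma), a call lost when any 1 library was left out. The other 3, c106120.graph_c0, c106335.graph_c0 and c109999.graph_c1, differed by 0.49, 0.56 and 0.71 on the log2 scale (adjusted p = 0.134, 0.175 and 0.0618 by limma). On the deposited counts c109999.graph_c1 was called higher by edgeR (adjusted p = 0.000186) and DESeq2 (0.00135), and c106120.graph_c0 by edgeR (0.028). The gene c109999.graph_c1 also passed limma with TMM (0.0415) or median-of-ratios scaling (0.0419), the filter at 5 FPKM (0.0474) and the replicate block (0.0108), and c106120.graph_c0 passed with the block (0.0293).

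Upstream, 5 of 10 genes of shikimate and aromatic amino acid synthesis were higher in corolla and 1 lower, with 2 higher without corolla repeat 1 and 3 without corolla repeat 2. DAHP synthase 2 (c99662.graph_c0), which opens the shikimate pathway, had 906 and 1362 FPKM in corolla, against 341 and 376 FPKM in petal (log2 difference 1.63 ± 0.20 SE, limma adjusted p = 0.00347). Arogenate/prephenate dehydratase 1 (c106196.graph_c0), which leads to phenylalanine, had 47.5 and 52.2 FPKM in corolla, against 23.2 and 26.1 FPKM in petal (log2 difference 0.99 ± 0.10 SE, limma adjusted p = 0.00196). Both enzymes were higher in corolla in every library. In the methylerythritol phosphate pathway, 2 of 4 genes were higher. The first enzyme, 1-deoxy-D-xylulose-5-phosphate synthase, was represented by synthase 1 (c107914.graph_c0) at 181 and 162 FPKM in corolla, against 32.9 and 31.9 FPKM in petal (log2 difference 2.36 ± 0.08 SE, limma adjusted p = 9.88e-05) and by synthase 2 (c106934.graph_c1) at 180.5 and 211 FPKM in corolla, against 89.5 and 117 FPKM in petal (adjusted p = 0.00875 by limma, 0.0613 without corolla repeat 2). A second synthase 2 gene (c54414.graph_c0) differed by -0.23 (adjusted p = 0.672 by limma). The cytidylyl transferase of the pathway (c91750.graph_c0) differed by 0.40 (adjusted p = 0.0518 by limma) and was called higher with TMM (0.0301) or median-of-ratios scaling (0.0316) and with the filter at 5 FPKM (0.0379).

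Other enzymes of specialised metabolism showed some of the largest differences. Isoleucine N-monooxygenase 1 (c95271.graph_c2), named after a P450 of Lotus japonicus that turns isoleucine and valine into oximes, had 0.11 and 0.19 FPKM in corolla, against 42.3 and 43.2 FPKM in petal (log2 difference -5.25 ± 0.16 SE, limma adjusted p = 6.67e-05). It was close to absent from the corolla libraries. Cytochrome P450 76C4 (c105417.graph_c1), named after an Arabidopsis member of a family that acts on monoterpenols, had 1034 and 1334 FPKM in corolla, against 69.3 and 91.9 FPKM in petal (log2 difference 3.86 ± 0.18 SE, limma adjusted p = 0.000179). S-norcoclaurine synthase (c106745.graph_c0), named after an alkaloid enzyme of meadow rue that belongs to the Bet v I protein family, had 1526 and 1348 FPKM in corolla, against 105 and 92.5 FPKM in petal (log2 difference 3.85 ± 0.10 SE, limma adjusted p = 5.17e-05). These last 2 genes were abundant in corolla and weaker in petal in every library. MLP-like protein 423 (c88947.graph_c0), of the same Bet v I family, had 1875 and 1679.7 FPKM in corolla, against 124 and 80.8 FPKM in petal (log2 difference 4.13 ± 0.20 SE, limma adjusted p = 0.000202). The alkaloid-type list split evenly, with 3 of 7 higher and 3 lower, and its lower members included a tropinone reductase homolog (c91830.graph_c0) at 1.44 and 1.38 FPKM in corolla, against 37.5 and 26.2 FPKM in petal and codeine O-demethylase (c100255.graph_c0) at 8.27 and 11.5 FPKM in corolla, against 46.5 and 49.9 FPKM in petal.

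**Figure D4:**
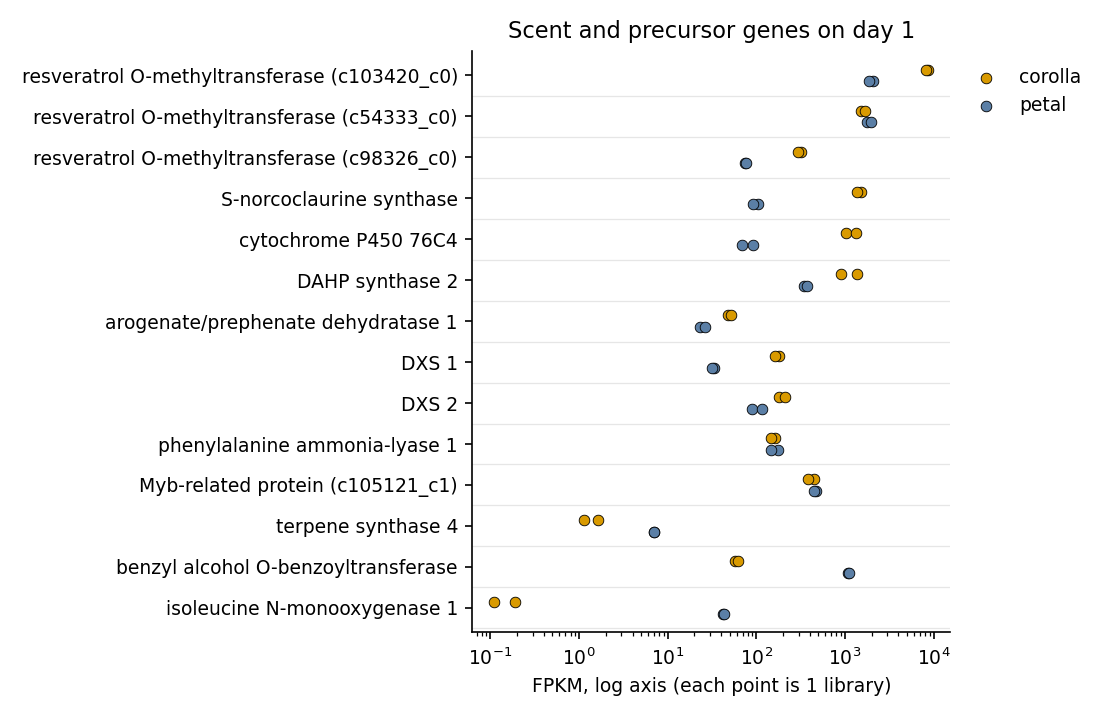
Day 1 level of 14 scent and precursor genes in FPKM on a log axis, with each point 1 library and corolla above petal for each gene. Benzyl alcohol O-benzoyltransferase, terpene synthase 4 and isoleucine N-monooxygenase 1 lie to the left in corolla, the cytochrome P450 76C4 and S-norcoclaurine synthase genes to the right, and phenylalanine ammonia-lyase 1 has overlapping points.

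At the surface of the petal, cuticular waxes are made from very long fatty acids. Of 41 genes of cuticle, wax and lipid transfer, 11 were higher and 15 lower in corolla, with a median difference of 0.07. The elongase gene 3-ketoacyl-CoA synthase 3 (c106324.graph_c0) had 0.47 and 0.53 FPKM in corolla, against 49.9 and 56.2 FPKM in petal (log2 difference -5.17 ± 0.15 SE, limma adjusted p = 5.95e-05), and 3-ketoacyl-CoA synthase 6 (c98211.graph_c0) had 16.5 and 13.2 FPKM in corolla, against 100.4 and 103 FPKM in petal (log2 difference -2.70 ± 0.12 SE, limma adjusted p = 0.000164). Both elongases were lower in corolla with no overlap. The GDSL lipase At3g48460 (c96700.graph_c0), of a family that includes cutin-forming enzymes, had 66.1 and 60.2 FPKM in corolla, against 1.95 and 1.27 FPKM in petal (log2 difference 4.63 ± 0.17 SE, limma adjusted p = 0.000102), and a lipid-transfer protein (c94539.graph_c0) had 459 and 400.2 FPKM in corolla, against 58.4 and 43.7 FPKM in petal (log2 difference 3.06 ± 0.15 SE, limma adjusted p = 0.000203).

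Several lipid genes ranked among the most abundant named genes of a tissue. Alkane hydroxylase MAH1 (c104614.graph_c3), named after an Arabidopsis wax enzyme, had 4477 and 4345 FPKM in corolla, against 1615 and 1495 FPKM in petal (log2 difference 1.50 ± 0.11 SE, limma adjusted p = 0.000735). The pEARLI1-like lipid transfer protein (c105508.graph_c1) had 962 and 950.3 FPKM in corolla, against 2842 and 2578 FPKM in petal (log2 difference -1.50 ± 0.10 SE, limma adjusted p = 0.000556) and was not called with all 8 libraries in 1 fit. EARLI 1 (c72353.graph_c0), of the same family, had 3.67 and 27.8 FPKM in corolla, against 804 and 701 FPKM in petal (log2 difference -6.02 ± 0.79 SE, limma adjusted p = 0.00471). The corolla repeats of EARLI 1 lay far from each other and still well under the petal libraries, and its call ended with no filter on low FPKM (0.0974). The GPI-anchored lipid transfer protein (c95472.graph_c0), at 2782 and 2814 FPKM in corolla, against 2627 and 2393 FPKM in petal, and the GDSL lipase At1g71250 (c99501.graph_c0), at 3143 and 2412 FPKM in corolla, against 2744 and 2029 FPKM in petal, did not pass (adjusted p = 0.38 and 0.485 by limma).

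Named cell wall genes were more often lower than higher in corolla, against 34.7% higher and 28.9% lower among all named genes tested. Of 83 genes of wall loosening and remodelling, 18 were higher and 38 lower, with a median difference of -0.46. The split differed with the authors' call behind the name, at 9 higher and 12 lower for genes called in corolla alone, 3 and 17 in petal alone, and 6 and 9 in both. A xyloglucan endotransglucosylase/hydrolase (c96460.graph_c3), which cuts and rejoins xyloglucan chains, had 0.51 and 0 FPKM in corolla, against 31.0 and 30.3 FPKM in petal (log2 difference -4.69 ± 0.24 SE, limma adjusted p = 0.000232), where 0 means only that the gene is listed at 0. A second one (c98673.graph_c0) had 0.73 and 0.86 FPKM in corolla, against 31.4 and 36.5 FPKM in petal (log2 difference -4.28 ± 0.16 SE, limma adjusted p = 0.000122). Both were below 1 FPKM in corolla.

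Pectin enzymes were abundant in petal. Pectinesterase 16 (c103484.graph_c0), which demethylates pectin, had 135 and 106 FPKM in corolla, against 899 and 682 FPKM in petal (log2 difference -2.70 ± 0.17 SE, limma adjusted p = 0.00045). Pectate lyase 8 (c106683.graph_c1), which cuts pectin, had 1256 and 877 FPKM in corolla, against 3403 and 2739.7 FPKM in petal (log2 difference -1.54 ± 0.20 SE, limma adjusted p = 0.00489). Polygalacturonase inhibitor 1 (c105289.graph_c0), which blocks a pectin-degrading enzyme, had 10.2 and 5.97 FPKM in corolla, against 136 and 153 FPKM in petal (log2 difference -4.04 ± 0.22 SE, limma adjusted p = 0.000286). The corolla libraries lay below the petal libraries in all 3. Expansin-like A1 (c103539.graph_c0) and glucan endo-1,3-beta-glucosidase 1 (c109664.graph_c0), whose annotated domain is a carbohydrate-binding one, were instead higher in corolla. The expansin-like gene had 15.7 and 13.2 FPKM in corolla, against 1.65 and 1.99 FPKM in petal and the glucosidase gene 49.8 and 46.7 FPKM in corolla, against 6.10 and 6.74 FPKM in petal, with differences of 2.45 ± 0.18 and 2.73 ± 0.11 SE.

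Transporters ran in both directions, where 34.7% of all named genes tested were higher in corolla and 28.9% lower. Of 78 membrane transporter genes, 22 were higher and 34 lower in corolla, with a median difference of -0.43, and 14 were higher without corolla repeat 1 and 15 without petal repeat 2. Sugar transporters of the SWEET family led the higher genes. SWEET4 (c54457.graph_c0) had 134 and 57.8 FPKM in corolla, against 0.31 and 1.15 FPKM in petal (log2 difference 5.73 ± 0.43 SE, limma adjusted p = 0.000726). The corolla repeats of SWEET4 lay well apart, and both were far above petal. SWEET13 (c96588.graph_c0) had 29.1 and 25.0 FPKM in corolla, against 0.31 and 0.13 FPKM in petal (log2 difference 4.52 ± 0.19 SE, limma adjusted p = 0.000157), and SWEET14 (c94280.graph_c0) 7.50 and 7.18 FPKM in corolla, against 0.32 and 0.13 FPKM in petal (log2 difference 2.77 ± 0.23 SE, limma adjusted p = 0.00104). All 3 were weak in petal.

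The transporters lowest in corolla included aquaporins, the water channels of membranes, and a nucleotide carrier. The vacuolar channel gene TIP1-1 (c94097.graph_c0) had 287 and 294 FPKM in corolla, against 1882 and 1779 FPKM in petal (log2 difference -2.65 ± 0.08 SE, limma adjusted p = 6.81e-05). A weaker TIP1-1 gene (c97947.graph_c0) had 3.28 and 3.88 FPKM in corolla, against 22.2 and 26.9 FPKM in petal (log2 difference -2.48 ± 0.16 SE, limma adjusted p = 0.000459). Between them in size of difference, equilibrative nucleotide transporter 3 (c93352.graph_c1) had 0.42 and 3.70 FPKM in corolla, against 11.8 and 19.0 FPKM in petal (difference -2.63 ± 0.57 SE, adjusted p = 0.0247 by limma), and was not called without either petal library or with a pseudocount of 0.1. The abundant plasma membrane channel gene PIP2-2 (c106508.graph_c1) had 473 and 688 FPKM in corolla, against 1358 and 1510.3 FPKM in petal (log2 difference -1.33 ± 0.19 SE, limma adjusted p = 0.0058). No corolla library reached a petal library for these transporters.

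Floral organ identity factors of the MADS-box family were expressed in both tissues. MADS-box 2 (c106110.graph_c1), named after a rice factor of the PISTILLATA group that helps specify petals and stamens, had 479 and 446 FPKM in corolla, against 268 and 241 FPKM in petal (log2 difference 0.86 ± 0.09 SE, limma adjusted p = 0.00192). MADS-box 16 (c95429.graph_c0), named after its rice partner of the APETALA3 group, had 30.4 and 24.7 FPKM in corolla, against 20.5 and 12.6 FPKM in petal (adjusted p = 0.0746 by limma). The AGL8 homolog (c96931.graph_c0), of the FRUITFULL group, had 18.6 and 21.5 FPKM in corolla, against 24.9 and 28.0 FPKM in petal (adjusted p = 0.0667 by limma). Libraries did not overlap for these factors, as for most genes tested, and MADS-box 2 alone passed limma with all 4 libraries and no block. MADS-box 16 was called higher without petal repeat 1 (adjusted p = 0.0294 by limma) and with the replicate block (0.0145), where the AGL8 homolog was called lower (0.0364).

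Other named regulators were lower in corolla more often than higher, against 34.7% higher and 28.9% lower among all named genes tested. The split differed with the authors' call behind the name. Homeobox, TCP and related factors gave 1 higher and 4 lower of 7 called in corolla alone. They gave 0 and 1 of 1 in petal alone and 0 and 2 of 4 in both. The other transcription factors gave 3 and 5 of 17 in corolla alone. In petal alone they gave 0 and 8 of 12, and in both 1 and 2 of 7. Of 12 homeobox, TCP and related factors, 1 was higher and 7 lower, with 4 lower without either petal library. TCP8 (c104385.graph_c2), of a family that controls petal growth in other plants, had 54.4 and 51.8 FPKM in corolla, against 13.4 and 13.0 FPKM in petal (log2 difference 1.93 ± 0.09 SE, limma adjusted p = 0.000181). Its identifier stem is shared with an extensin-like gene (c104385.graph_c1). That of the BEL1-like factor below is shared with a tubulin alpha chain gene (c105568.graph_c1), at 196 and 186 FPKM in corolla, against 352 and 317 FPKM in petal. Whether these names are right was not tested. The BEL1-like factor 8 (c105568.graph_c2) had 256 and 227 FPKM in corolla, against 409 and 353 FPKM in petal (adjusted p = 0.00914 by limma, 0.0717 without corolla repeat 2). Among 36 other transcription factors, 4 were higher and 15 lower, with 8 lower without either petal library. CONSTANS-LIKE 7 (c99027.graph_c1) had 21.8 and 16.8 FPKM in corolla, against 0.32 and 0.16 FPKM in petal (log2 difference 4.03 ± 0.22 SE, limma adjusted p = 0.00027), and B-box protein 21 (c96284.graph_c0), a promoter of light responses in Arabidopsis, had 105 and 84.3 FPKM in corolla, against 14.5 and 16.1 FPKM in petal (log2 difference 2.55 ± 0.13 SE, limma adjusted p = 0.000213). Both of these belong to the B-box zinc finger group. The factor bHLH150 (c97788.graph_c0) had 2.35 and 2.66 FPKM in corolla, against 29.9 and 22.0 FPKM in petal (log2 difference -2.93 ± 0.19 SE, limma adjusted p = 0.00045).

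All 4 NAC factors that passed were lower in corolla, out of 5 (28.9% lower among all named genes tested), but each was weak. NAC100 (c104534.graph_c0) had 1.55 and 2.93 FPKM in corolla, against 5.96 and 15.7 FPKM in petal, and the NAC48 genes c97748.graph_c0 and c54607.graph_c0 had 0.22 and 0.32 FPKM in corolla, against 2.61 and 4.92 FPKM in petal, and 0 and 0.31 FPKM in corolla, against 2.06 and 3.05 FPKM in petal. No NAC gene was called without corolla repeat 1 or without petal repeat 2, and 2 were called without either of the other libraries. The abundant NAC25 gene (c102381.graph_c0) had overlapping values, 40.6 and 49.7 FPKM in corolla, against 42.1 and 51.0 FPKM in petal (adjusted p = 0.859 by limma). Myb-related protein 305 (c105121.graph_c1), of a group that in petunia includes regulators of benzenoid scent, had 442 and 378 FPKM in corolla, against 476 and 441 FPKM in petal (difference -0.17 ± 0.10 SE, adjusted p = 0.301 by limma). A weaker gene of the same name (c93159.graph_c2) was lower in corolla, with 29.2 and 28.5 FPKM in corolla, against 54.6 and 45.0 FPKM in petal (difference -0.76 ± 0.11 SE, adjusted p = 0.00717 by limma), and was not called without corolla repeat 2 or with all 8 libraries in 1 fit.

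Hormone-related genes were few, where 34.7% of all named genes tested were higher in corolla and 28.9% lower. Of 8 auxin genes 1 was higher and 4 lower in corolla, the higher call resting on each of 3 libraries (0 without either corolla library or without petal repeat 2). The auxin-repressed 12.5 kDa protein (c99383.graph_c0) had 161 and 131 FPKM in corolla, against 663 and 705 FPKM in petal (log2 difference -2.23 ± 0.11 SE, limma adjusted p = 0.00023), and the auxin-induced ARG7-like gene (c110494.graph_c0) had 84.9 and 82.9 FPKM in corolla, against 320.1 and 300.0 FPKM in petal (log2 difference -1.87 ± 0.07 SE, limma adjusted p = 0.000122). Of 11 gibberellin and abscisic acid genes 1 was higher and 5 lower, with 0 higher and 3 lower without corolla repeat 1 or without either petal library. Abscisic stress-ripening protein 1 (c91020.graph_c0) had 10.1 and 14.9 FPKM in corolla, against 162 and 307 FPKM in petal (log2 difference -4.08 ± 0.32 SE, limma adjusted p = 0.000822), and gibberellin-regulated protein 6 (c99390.graph_c0) had 62.6 and 53.2 FPKM in corolla, against 219 and 172 FPKM in petal (log2 difference -1.73 ± 0.14 SE, limma adjusted p = 0.000889). Libraries did not overlap for these 4 genes, as for the 37.9% of all genes tested that lay lower in corolla without overlap. Ethylene genes gave 1 higher and 2 lower of 8, with 0 higher without corolla repeat 1 or petal repeat 1 and 1 lower without either petal library. Jasmonate and lipoxygenase genes gave 2 and 4 of 9, with 0 higher without corolla repeat 1 and 1 without each of the other libraries.

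The other lists were mixed, and several counts moved with 1 library left out. For scale, 34.7% of all named genes tested were higher in corolla and 28.9% lower. Lignin genes gave 3 higher and 2 lower of 11. Flavonoid and anthocyanin genes gave 5 and 5 of 15, with 3 lower without either corolla library. Starch and sucrose genes gave 7 and 2 of 15, with 3 higher without corolla repeat 2, 4 without each of the other libraries, and 1 lower without either corolla library or petal repeat 2. Methyltransferases gave 14 higher and 2 lower of 37, with 6 higher without corolla repeat 1 and 1 lower without petal repeat 1. P450 and glycosyltransferase genes gave 6 and 9 of 26, with 3 higher without corolla repeat 2 and 6 lower without petal repeat 1. MYB factors gave 1 and 2 of 6, with 0 lower without corolla repeat 2 and 1 without each of the others. Cytokinin and brassinosteroid genes gave 2 and 0 of 2, with 1 higher without corolla repeat 1. Chaperones and the other heat shock genes gave 6 and 2 of 18, with 1 lower whichever library was left out. Cell cycle and chromatin genes gave 2 and 5 of 16, with 1 higher without either corolla library or petal repeat 1, 2 lower without corolla repeat 2 and 3 lower without petal repeat 2.

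Of 15 named defence protein genes, 2 were higher and 8 lower in corolla (median difference -0.90). The shares of all named genes tested were 34.7% and 28.9%. Defence genes called by the authors between days in corolla alone gave 2 higher and 2 lower of 4. Those called in petal alone gave 0 and 2 of 5, and those called in both 0 and 4 of 6. Pathogenesis-related protein PR-4B (c103444.graph_c1) had 38.7 and 35.3 FPKM in corolla, against 598 and 766 FPKM in petal (log2 difference -4.16 ± 0.13 SE, limma adjusted p = 7.06e-05), and chitinase 6 (c100675.graph_c0), which degrades fungal walls, had 111 and 122 FPKM in corolla, against 687 and 839.8 FPKM in petal (log2 difference -2.70 ± 0.12 SE, limma adjusted p = 0.000158). Pathogenesis-related protein 1 (c108112.graph_c0) had 0.09 and 0.42 FPKM in corolla, against 14.1 and 26.4 FPKM in petal (log2 difference -4.03 ± 0.34 SE, limma adjusted p = 0.001). The thaumatin-like gene c98760.graph_c0 was lower, at 291 and 328 FPKM in corolla, against 1003 and 1441 FPKM in petal, whereas the thaumatin-like gene c109147.graph_c0 was higher, at 30.4 and 32.1 FPKM in corolla, against 5.94 and 6.10 FPKM in petal, and so was chitinase 2 (c100205.graph_c0), at 71.7 and 77.6 FPKM in corolla, against 7.67 and 13.7 FPKM in petal. Thaumatin-like and chitinase genes thus stood on both sides.

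Markers of other flower parts gave small counts in both directions. The photosynthesis list above, also set as the marker list for green tissue, instead had 48 of 53 genes higher in corolla and 1 lower. Of 5 pollen and anther markers 2 were higher and 3 lower in corolla, with 1 higher without corolla repeat 2 or petal repeat 1, and their summed level was 73.2 and 131 FPKM in the corolla libraries, against 106 and 84.7 FPKM in the petal libraries. The pollen-specific protein At4g18596-like gene (c97442.graph_c0) had 3.94 and 2.23 FPKM in corolla, against 65.9 and 40.1 FPKM in petal (log2 difference -3.71 ± 0.30 SE, limma adjusted p = 0.000882), while C13 gene c95015.graph_c0 had 29.6 and 61.9 FPKM in corolla, against 2.44 and 7.24 FPKM in petal (adjusted p = 0.00985 by limma, 0.0558 without corolla repeat 2). Of 5 pistil, ovule and seed markers 1 was higher and 4 lower, with 2 lower without corolla repeat 1 or petal repeat 2, and their summed level was 188 and 211 FPKM in the corolla libraries, against 325 and 387 FPKM in the petal libraries. The higher one, oleosin 5 (c68194.graph_c0), had 2.49 and 1.76 FPKM in corolla, against 0.43 and 0.11 FPKM in petal, a call lost when any 1 library was left out. The basic 7S globulin gene (c102072.graph_c0) had 1.57 and 0.76 FPKM in corolla, against 34.0 and 25.9 FPKM in petal (log2 difference -3.85 ± 0.25 SE, limma adjusted p = 0.00045). No tested marker of these lists was at 0 in a day 1 library. Whether other tissue, green tissue included, had a part in any result was not tested.

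Small heat shock genes differed between the repeats in both tissues. Summed over 7 small heat shock genes, repeat 1 and repeat 2 had 177 and 325 FPKM in corolla, against 181 and 351 FPKM in petal. One of them was called, the 22.3 kDa class VI gene (c99424.graph_c0), lower in corolla at 3.27 and 5.27 FPKM in corolla, against 11.2 and 14.8 FPKM in petal and not called without petal repeat 2. The chloroplast gene c100136.graph_c0 had 46.8 and 157 FPKM in corolla, against 23.9 and 152 FPKM in petal (adjusted p = 0.756 by limma).

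Among leading genes whose description names no function, c98098.graph_c1, with a domain of unknown function, was among the 5 most abundant named genes of corolla, at 4202 and 3768 FPKM in corolla, against 140.2 and 104 FPKM in petal (log2 difference 5.03 ± 0.16 SE, limma adjusted p = 7.06e-05). The BTB/POZ protein gene c104350.graph_c0 had 111 and 107 FPKM in corolla, against 4.78 and 6.52 FPKM in petal (log2 difference 4.06 ± 0.14 SE, limma adjusted p = 9.88e-05). In the other direction, c110924.graph_c1, whose domain match is to the gag protein of a copia retrotransposon, had 209.6 and 252 FPKM in corolla, against 7793 and 9247 FPKM in petal (log2 difference -5.20 ± 0.14 SE, limma adjusted p = 5.18e-05). This gene was the most abundant named gene of petal, and it shares its identifier stem with an isoflavone reductase homolog (c110924.graph_c0). That homolog had 1553 and 1362 FPKM in corolla, against 1323 and 1223 FPKM in petal (adjusted p = 0.265 by limma). Whether either name is right was not tested. Also lower in corolla were the uncharacterised genes c109509.graph_c0, at 0.58 and 0.55 FPKM in corolla, against 169.9 and 131 FPKM in petal, and c54411.graph_c0, at 12.2 and 9.31 FPKM in corolla, against 286 and 177 FPKM in petal. Histone deacetylase 15 (c100155.graph_c0), of a chromatin-modifying family, led its list, with 340.2 and 312 FPKM in corolla, against 26.3 and 17.9 FPKM in petal (log2 difference 3.85 ± 0.18 SE, limma adjusted p = 0.000179).

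The difference between tissues on day 1 was set against that on day 7 by the interaction term of a limma fit over all 8 libraries. Of 26460 genes, 173 (0.654%) passed, 104 (0.393%) with a more positive difference on day 1 and 69 (0.261%) with a more negative one. On day 7 alone, 1176 of 23185 genes (5.07%) passed between corolla and petal. Such counts depend on the spread between repeats, so this share does not measure how far the tissues differed. The methyltransferase c103420.graph_c0 differed by 2.50 on day 7 (limma adjusted p = 0.0105) and by 2.11 on day 1 (limma adjusted p = 0.000487). Of the genes named above 35 passed the interaction, and these had been named for their day 1 values, so their number is no measure of the whole. SWEET4 (c54457.graph_c0) differed by 5.73 on day 1 and 0.63 on day 7 (interaction 5.10, limma adjusted p = 0.0153). Palmitoyl-acyl carrier protein thioesterase (c103026.graph_c0) differed by 4.78 on day 1 and 0.47 on day 7 (4.31, limma adjusted p = 0.00275). Phytoene synthase (c101402.graph_c0), at 6.98 and 5.23, and CCD4 gene c109231.graph_c0, at -8.55 and -7.05, kept most of their tissue difference. The other CCD4 gene (c104683.graph_c0) kept less, at -4.90 on day 1 and -2.17 on day 7 (interaction -2.73, limma adjusted p = 0.02). Terpene synthase 4, benzyl alcohol O-benzoyltransferase and the abundant methyltransferase c103420.graph_c0 did not pass the interaction.

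Most of the named interaction calls were lost in at least 1 fit with 1 library less, although the values of the 35 named genes kept 83.6% to 116% of their size in those fits. Without day 1 repeat 1 of corolla 14 genes passed, and without that of petal 20. Of the 35 named genes, 6 kept their call in each of these fits, and 5 kept it whichever of the 8 libraries was left out. Those 5 were the thioesterase c103026.graph_c0, the magnesium-protoporphyrin cyclase c106346.graph_c1, S-norcoclaurine synthase c106745.graph_c0, 1-deoxy-D-xylulose-5-phosphate synthase 1 c107914.graph_c0 and the uncharacterised gene c54411.graph_c0.

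**Figure D5:**
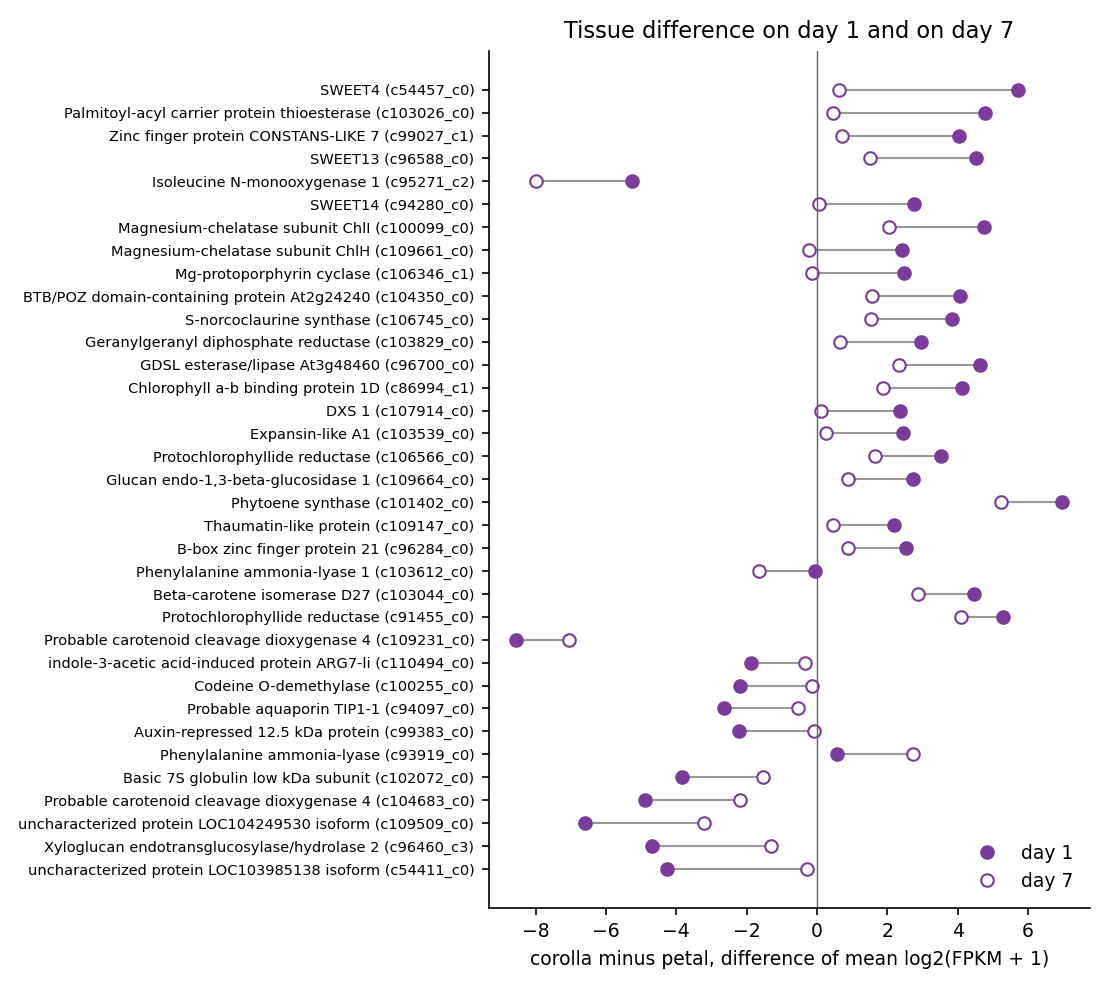
Difference between corolla and petal in mean log2(FPKM + 1) on day 1 (filled) and day 7 (open) for the 35 named genes that passed the interaction term, ordered by its value. SWEET4 and the palmitoyl-acyl carrier protein thioesterase, at the top, run from above 4 on day 1 to below 1 on day 7, while phytoene synthase stays above 5 on both days.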

How the data were processed

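RNA-seq libraries of corolla and petal were compared on day 1, with 2 repeats each. For each tissue the authors deposited FPKM per assembled gene over both days, rounded to 2 decimals, and, for genes they called between days, read counts as well, per the file headers. Bowtie and RSEM are named in the submitters' processing notes, with no version. Descriptions are the authors' Swiss-Prot matches, or Nr matches where Swiss-Prot gave none.

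The tables of both tissues were joined by gene identifier. Since each was deposited separately, the scale was checked on 255 genes with counts and more than 5 FPKM in all libraries: 96.5% of their day 1 ratios of count to FPKM lay within 0.2 log2 of the library median. Values were taken as log2(FPKM + 1), filtered at 1 FPKM in 2 of the 4 libraries, and tested with limma 3.58.1 in R 4.3.3 with a trended prior (two-sided, Benjamini-Hochberg adjustment, threshold 0.05). An exact permutation of 2 against 2 libraries cannot go below p = 0.333. The fits were tested on simulated data first. edgeR 4.0.16 and DESeq2 1.42.0 were run on the deposited counts of 504 genes. Python 3.11.15, pandas 2.3.3, numpy 2.4.6 and matplotlib 3.10.9 served for tables and plots. No other sample column was left unused. Total counts per library are unknown, since counts cover called genes only.

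The genes, lists and tests were chosen with earlier results of these data known. Lists match words in descriptions, and after values were seen unrelated word matches were removed, ribosomal proteins were split into plastid and cytosolic, and small heat shock proteins were set apart. Genes could be named from the 12 described genes with the largest difference each way (adjusted p below 0.05, no overlap, at least 10 FPKM in the higher tissue), per list up to 3 each way and the 2 most abundant, every member of the carotenoid, MADS-box, terpenoid and benzenoid lists, the 5 most abundant per tissue, and 2 undescribed genes each way. Some chlorophyll synthesis genes (ChlH, ChlD, the cyclase and geranylgeranyl diphosphate reductase) and c73852.graph_c0 were named after their values were seen. No sequence was used.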

Additional observations from a re-analysis of the deposited data

Results flagged for a closer look

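The results below are named genes whose difference between corolla and petal on day 1 itself differed from that on day 7, by the interaction term of the limma fit over all 8 libraries at an adjusted p below 0.05. Each value is the day 1 difference minus the day 7 difference in mean log2(FPKM + 1). The genes were named for their day 1 values and few calls held without a day 1 repeat 1: 6 of the 35 kept theirs without corolla day 1 repeat 1 and 6 without petal day 1 repeat 1.

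Genes higher in corolla on day 1 with a smaller difference on day 7 were mostly plastid, lipid and sugar genes. In carotenoid synthesis, phytoene synthase (c101402.graph_c0) gave 1.75 and the D27 isomerase (c103044.graph_c0) 1.60. Chlorophyll and light-harvesting genes gave 1.19 for protochlorophyllide reductase c91455.graph_c0, 1.86 for reductase c106566.graph_c0, 2.70 for ChlI (c100099.graph_c0), 2.65 for ChlH (c109661.graph_c0), 2.63 for the magnesium-protoporphyrin cyclase (c106346.graph_c1), 2.30 for geranylgeranyl diphosphate reductase (c103829.graph_c0) and 2.26 for chlorophyll a-b binding protein 1D (c86994.graph_c1). The sugar transporters gave 5.10 for SWEET4 (c54457.graph_c0), 3.01 for SWEET13 (c96588.graph_c0) and 2.72 for SWEET14 (c94280.graph_c0). Lipid genes gave 4.31 for the palmitoyl-acyl carrier protein thioesterase (c103026.graph_c0) and 2.29 for the GDSL lipase (c96700.graph_c0). Synthase 1 of the methylerythritol phosphate pathway (c107914.graph_c0) gave 2.26 and S-norcoclaurine synthase (c106745.graph_c0) 2.32. The wall genes c103539.graph_c0 (expansin-like A1) and c109664.graph_c0 (glucan endo-1,3-beta-glucosidase 1) gave 2.20 and 1.85. The regulators CONSTANS-LIKE 7 (c99027.graph_c1) and B-box protein 21 (c96284.graph_c0) gave 3.31 and 1.66, the thaumatin-like gene c109147.graph_c0 gave 1.73, and the BTB/POZ gene c104350.graph_c0 gave 2.49.

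Genes lower in corolla on day 1 with a smaller difference on day 7 gave negative values. The CCD4 genes gave -1.50 (c109231.graph_c0) and -2.73 (c104683.graph_c0), the xyloglucan endotransglucosylase c96460.graph_c3 gave -3.38, and the aquaporin TIP1-1 (c94097.graph_c0) -2.10. The auxin-related genes c110494.graph_c0 and c99383.graph_c0 gave -1.53 and -2.14, basic 7S globulin (c102072.graph_c0) -2.33, codeine O-demethylase (c100255.graph_c0) -2.07, and the uncharacterised genes c109509.graph_c0 and c54411.graph_c0 -3.36 and -3.99.

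In 3 cases the day 7 difference was the larger one. Isoleucine N-monooxygenase 1 (c95271.graph_c2) gave 2.73, with differences of -5.25 on day 1 and -7.99 on day 7. The phenylalanine ammonia-lyase genes, neither called on day 1, gave values of opposite sign, with 1.61 for phenylalanine ammonia-lyase 1 (c103612.graph_c0), at -0.05 and -1.65, and -2.18 for c93919.graph_c0, at 0.56 and 2.74.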

How the results depend on the processing

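No day 1 call of a named gene changed direction under the settings run, and 74 of the 110 calls held under each of them. Without a filter on low FPKM, 1460 genes passed on day 1 in place of 5556, 722 higher and 738 lower. The named calls that ended there and under no other setting are those of c100205.graph_c0, c101367.graph_c0, c103420.graph_c0, c104304.graph_c0, c104614.graph_c3, c105804.graph_c7, c106110.graph_c1, c106508.graph_c1, c106683.graph_c1, c72353.graph_c0, c89421.graph_c1, c91020.graph_c0, c97442.graph_c0, c98760.graph_c0 and c99662.graph_c0. The cause was not tested. Leaving out 1 library gave 2860 to 2906 genes, 1217 to 1447 higher and 1413 to 1689 lower, with fewer samples per fit, and 90 of the named calls held whichever library was left out. A tissue then has 1 library, assumed to vary like the other tissue. The other settings for all genes gave 4019 to 6054 calls. On the deposited counts of 504 genes, limma called 295, edgeR 330 and DESeq2 309, with 289 and 285 shared, all of the same sign.

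Counts moved more in the test of the day 1 against the day 7 difference. It gave 173 genes, 104 more positive and 69 more negative on day 1, against 280 (163 and 117) with TMM scaling, where the cause was not tested. Leaving out 1 library gave 14 to 216, with 9 to 111 more positive and 5 to 115 more negative. Of the 35 named genes that passed, 5 kept their call whichever library was left out, while the values of all 35 stayed within 83.6% to 116% of those with all libraries.

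With the repeat number as a replicate block, 6054 genes passed on day 1 (2626 higher, 3428 lower) and 166 between days (93 and 73). Deviations of same-numbered repeats were correlated between the tissues on day 1 (r = 0.176 across genes, 0.386 for a mean of at least 5 FPKM). Relative depth was 1.0 and 1.04 in repeat 1 of corolla and petal, against 0.830 and 0.841 in repeat 2. The main test leaves out the repeat number, and nothing says that a number marks a shared plant or day. Total read counts are unknown, so the depth behind a low FPKM cannot be given, and the p-values measure the spread between 2 libraries per tissue.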

Other observations

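Genes without a description gave some of the largest differences of all. Higher in corolla were c27624.graph_c0, with 107 and 112 FPKM in corolla, against 0 and 1.70 FPKM in petal (log2 difference 6.07 ± 0.44 SE, limma adjusted p = 0.000667), and c98231.graph_c0, with 47.4 and 47.4 FPKM in corolla, against 0.06 and 0.12 FPKM in petal (log2 difference 5.47 ± 0.16 SE, limma adjusted p = 5.89e-05). Lower in corolla were c106206.graph_c2, with 7.90 and 8.30 FPKM in corolla, against 881 and 997 FPKM in petal (log2 difference -6.69 ± 0.09 SE, limma adjusted p = 7.94e-06), and c107735.graph_c0, with 13.3 and 14.5 FPKM in corolla, against 1161 and 1085 FPKM in petal (log2 difference -6.23 ± 0.08 SE, limma adjusted p = 7.94e-06). Neither tissue's libraries overlapped the other's for these 4 genes. The fourth most abundant named gene of petal, a subunit of plastid pyruvate dehydrogenase (c104613.graph_c0), which supplies acetyl-CoA for fatty acids, had 2082 and 1947 FPKM in corolla, against 2917 and 2589 FPKM in petal (adjusted p = 0.0454 by limma), a call that ended with TMM (0.0923) or median-of-ratios scaling (0.0951), with no filter on low FPKM, with all 8 libraries in 1 fit, with no trend in the prior variance, and without petal repeat 1 or either corolla library.

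Some genes are listed for 1 tissue only and entered no test. Of 13914 such genes in the corolla table and 16606 in the petal table, 83 and 91 had at least 1 FPKM in both day 1 libraries. At 5 FPKM or more in both, corolla had 5 genes. They include chlorophyll a-b binding protein 7 (c86994.graph_c2), at 26.5 and 25.2 FPKM, and the GDSL lipase At2g31550 (c103504.graph_c1), at 11.99 and 8.29 FPKM. Petal had 6, all without a description, and 2 of them, c152908.graph_c0 at 19.8 and 24.4 FPKM and c77593.graph_c0 at 19.9 and 19.3 FPKM, stood above the others in both libraries.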
